A study of Mus musculus with 40 samples.

Results

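Il2ra and the receptors of the common gamma chain family were followed through 2 stages of early mouse thymocytes in which the transcriptional coactivator gene Zmiz1 was deleted or the receptor Notch1 was blocked by an antibody. The 7 genes, Il2ra, Il2rb, Il2rg, Il7r, Il4ra, Il21r and Il15ra, were chosen by symbol from 23303 gene symbols in bulk RNA-seq count tables of 40 libraries, and all 7 were found in each of the 3 tables.

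All mice were C57BL/6. DeltaMxCre mice carried MxCre and Zmiz1f/f and were set against MxCre mice, both given 40 mcg of pI-pC 5 times at 2-day intervals and sorted after 8 weeks (3 mice a group). DeltaTamCre mice carried Rosa26CreERT2 and Zmiz1f/f and were set against Rosa26CreERT2 mice (TamCre), both given 0.2 mg/g of tamoxifen and sorted 43 to 44 hours later (4 mice a group). AntiNRR mice received 10 mg/kg of the anti-NRR antibody, which binds Notch1 and keeps it from being activated, and IgG mice the same dose of an isotype control, 24 hours before sorting; there were 3 libraries a group, and a number of mice is not given in the sources used here. MxCre is driven by an interferon-responsive promoter, which pI-pC induces in many cell types, and Rosa26CreERT2 is present in all tissues, so neither deletion is limited to thymocytes. Within each experiment the treated and control animals therefore shared the Cre transgene and the inducing agent, or the injection of an antibody.

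From each group, early T-cell precursors (ETP) and DN3 thymocytes were sorted. The labels give both stages as CD44+ CD25-, with cKit+ added for ETP. CD25 is the protein made from Il2ra, so that gene was tied to the gate, in treated and control groups alike. The part of the gate in the size of any Il2ra change given below was not tested. In the usual scheme of thymocyte stages DN3 cells carry CD25 and lack CD44. Transcript markers followed the stage names all the same. The 7 ETP markers measured were all lower in MxCre DN3 than in MxCre ETP, Cd44 with a log2 fold change of -4.77 (adjusted p = 0.000339) and Cd34 with -7.65 (adjusted p = 6.72e-06), and 6 of 8 DN3 markers were higher, among them Ptcra (5.31, adjusted p = 0.000973). Here and throughout, a gene is called changed at an edgeR quasi-likelihood p under 0.05 after Benjamini-Hochberg adjustment over all genes tested, and p-values measure only the spread between these libraries.

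The common gamma chain, encoded by Il2rg, is the shared signalling subunit of the receptors for interleukins 2, 4, 7, 9, 15 and 21. Each cytokine is recognised by a private or partly shared chain, and the chains signal through the kinases Jak1 and Jak3 to Stat factors. In the thymus interleukin 7 is the main survival and growth signal of early thymocytes, while Il2ra serves as a marker of T-lineage progress and is a known Notch-responsive gene. Il2ra and Il2rb together with Il2rg make the high-affinity receptor for interleukin 2, and Il15ra presents interleukin 15 to cells with Il2rb and Il2rg.

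Il2ra (chr2:11642807-11693193, plus strand, GRCm38) and Il15ra (chr2:11705290-11734317, plus strand) are neighbouring protein-coding genes 12097 bp apart. Il4ra (chr7:125552120-125579474, plus strand) and Il21r (chr7:125603429-125633570, plus strand) are another neighbouring pair, 23955 bp apart. Il7r (chr15:9505788-9530176, minus strand) and Il2rb (chr15:78479256-78495271, minus strand) lie far apart on chromosome 15, and Il2rg (chrX:101264378-101268255, minus strand) is X-linked. The promoters of the 3 members that changed when Notch1 was blocked in DN3 cells are shown, each from 250 bases before to 50 after a RefSeq start site (GRCm38.p6), 5′ to 3′ on the gene's strand, with motif matches in capitals.
Il2ra promoter, chr2:11642542-11642841, plus strand: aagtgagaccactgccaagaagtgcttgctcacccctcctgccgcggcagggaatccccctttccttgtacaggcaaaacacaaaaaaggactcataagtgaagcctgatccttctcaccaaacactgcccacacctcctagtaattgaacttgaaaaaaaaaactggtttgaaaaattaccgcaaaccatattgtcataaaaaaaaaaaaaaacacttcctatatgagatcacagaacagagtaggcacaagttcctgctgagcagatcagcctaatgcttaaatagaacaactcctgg
Il7r promoter, chr15:9529827-9530126, minus strand: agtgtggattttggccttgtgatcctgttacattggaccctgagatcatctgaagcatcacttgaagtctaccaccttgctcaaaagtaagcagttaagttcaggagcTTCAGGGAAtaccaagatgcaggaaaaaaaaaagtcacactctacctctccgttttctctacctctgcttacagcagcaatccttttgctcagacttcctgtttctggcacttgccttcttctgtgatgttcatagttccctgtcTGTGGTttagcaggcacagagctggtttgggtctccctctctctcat
Il21r promoter, chr7:125603179-125603478, plus strand: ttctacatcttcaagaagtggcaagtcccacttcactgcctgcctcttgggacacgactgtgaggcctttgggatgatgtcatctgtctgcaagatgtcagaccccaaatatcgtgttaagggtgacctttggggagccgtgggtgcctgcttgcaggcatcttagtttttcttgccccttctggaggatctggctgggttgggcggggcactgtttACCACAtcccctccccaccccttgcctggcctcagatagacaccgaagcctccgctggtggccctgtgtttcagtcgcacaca

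Both strands of the promoters were searched for an Rbpj-type motif (TGGGAA, the letters bound by the Notch partner Rbpj), a Stat-type motif (TTCNNNGAA), a Runx-type motif (TGTGGT), the AGATAA letters of Gata factors and an Ets-type motif (CCGGAA). The capitals in Il7r are a Stat-type match at bases 109 to 117 and a Runx-type match at bases 254 to 259, and those in Il21r a Runx-type match, read on the opposite strand, at bases 218 to 223. The Il2ra window held none of the 5. Among promoters not shown, that of Il2rg held an Rbpj-type match at bases 10 to 15. It also held a Runx-type match at bases 24 to 29 and an Ets-type match at bases 234 to 239. An Il15ra promoter held an Ets-type match at bases 147 to 152, and the Il4ra promoter held no match. Of 32851 RefSeq promoters of this length, 8.3% held the Stat-type, 16.8% the Runx-type, 25.6% the Rbpj-type, 11.2% the AGATAA and 14.9% the Ets-type letters. A match describes letters and not a bound site. RefSeq promoters were given for 6 of the 7 members, with 2 for Il15ra.

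Total estimated counts ran between 9456818 and 23962395 per library in the table of the pI-pC and antibody experiments, 48127197 and 91659598 in the tamoxifen DN3 table, and 17418638 and 30975324 in the tamoxifen ETP table. The 3 tables came from different library kits, so tests stayed within a table, and levels are given as CPM, counts relative to the library total after TMM scaling within each table. Zmiz1 itself read 58.7, 96.3 and 114 CPM in DeltaMxCre ETP against 319, 239 and 157 in MxCre ETP, and 117, 129 and 113 in DeltaMxCre DN3 against 286, 349 and 317 in MxCre DN3. It read 174, 120.3, 307 and 202 CPM in DeltaTamCre ETP against 424, 418, 461 and 458 in TamCre ETP, and 201, 243, 184 and 188 in DeltaTamCre DN3 against 354, 322, 301 and 312 in TamCre DN3. No deleted library overlapped its controls, and the counts do not say which exons the remaining reads cover. The antibody libraries read 249, 232 and 97.7 CPM in AntiNRR ETP against 224, 211 and 205 in IgG ETP, and 315, 302 and 314 in AntiNRR DN3 against 298, 276 and 250.4 in IgG DN3. AntiNRR ETP library 3 lay among the deleted ETP libraries in this gene, so results in that group are also given without it. The ribosomal RNA gene Rn45s took 4.77% to 6.80% of counts in AntiNRR DN3 and 2.75% to 3.74% in IgG DN3, and 4.71% to 5.07% in DeltaMxCre DN3 and 6.76% to 8.82% in MxCre DN3. Between stages its share was lower in DN3, at 6.76% to 8.82% in MxCre DN3 and 14.8% to 16.3% in MxCre ETP, and at 2.75% to 3.74% in IgG DN3 and 8.92% to 13.8% in IgG ETP. The nuclear RNA Malat1 took 0.961% to 1.33% in DeltaMxCre DN3 and 0.324% to 0.711% in MxCre DN3. The Rn45s share reached 31.5% in DeltaTamCre ETP and 27.3% in TamCre ETP, and overlapped between those groups. The part of these shares in the results was not tested.

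Il2ra, the alpha chain that raises the affinity for interleukin 2, had the highest mean level per kilobase of exon of the 7 genes in all 12 groups, although its range overlapped that of the next gene in AntiNRR ETP and in DeltaTamCre ETP. In the pI-pC and antibody table its means ran, from the top, 4937 ± 737 CPM in DeltaMxCre DN3, 4733 ± 251 in DeltaMxCre ETP, 3413 ± 305 in IgG DN3, 3274 ± 948 in MxCre DN3, 2159 ± 369 in IgG ETP, 1972 ± 341 in MxCre ETP, 637 ± 162 in AntiNRR DN3 and 573 ± 399.9 in AntiNRR ETP (SD, n = 3 each). In that order the ranges of neighbouring groups overlapped except at 2 steps: both DeltaMxCre groups lay above every control library, and both AntiNRR groups lay below every control library. The same ladder is seen in the plot of levels by library. In bulk samples, fewer cells of a type and less RNA per cell cannot be told apart.

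**Figure D1:**
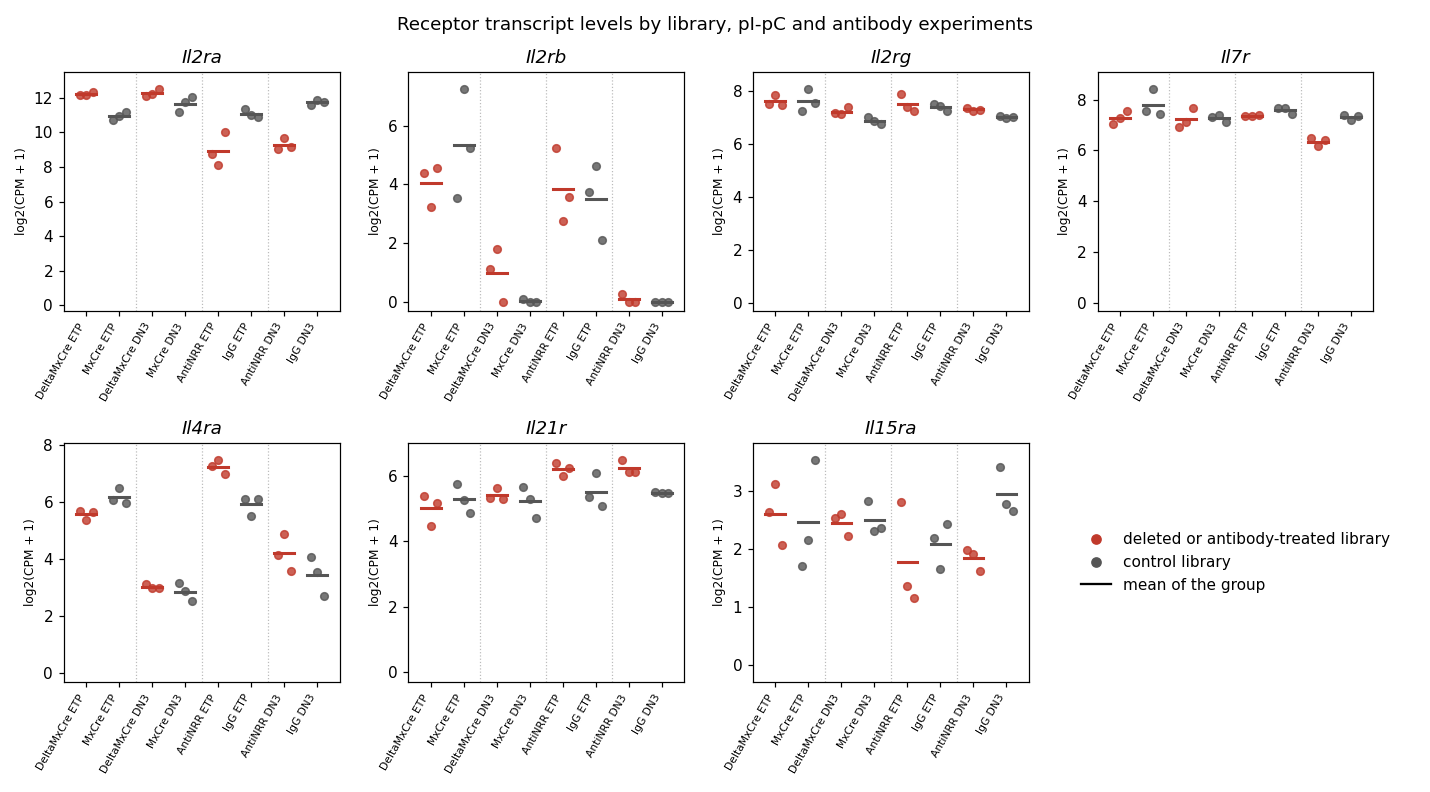
Level of each of the 7 receptor genes as log2(CPM + 1) in the 24 libraries of the pI-pC and antibody experiments. Points are libraries, red for deleted or antibody-treated and grey for control, and bars are means of the log2 values of 3 libraries; Il2ra lies above the controls in both DeltaMxCre groups and below them in both AntiNRR groups, and Il2rb is near 0 in control DN3.

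Il2ra fell in DN3 cells of mice given the Notch1 antibody. It read 528, 824 and 560.5 CPM in AntiNRR DN3 and 3076, 3668 and 3496 CPM in IgG DN3. Every AntiNRR library lay far below every IgG library, and the level was 0.185 times that of the controls (log2 fold change -2.43, SE 0.159, adjusted p = 1.46e-05). The call held without each library in turn, with log2 fold changes between -2.66 and -2.32. CD25 was in the sort gate of both groups, and its part in the size of the fall was not tested.

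Il7r, which encodes the alpha chain that binds interleukin 7, fell as well in the same cells. Its levels were 87.7, 70.9 and 83.7 CPM in AntiNRR DN3 and 167, 147 and 163 CPM in IgG DN3. The groups did not overlap, and the AntiNRR level was 0.504 times that of IgG (log2 fold change -0.99, SE 0.124, adjusted p = 2.66e-05).

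Il21r, the private chain of the interleukin 21 receptor, moved the opposite way. It read 88, 67.7 and 68.1 CPM in AntiNRR DN3 and 44.1, 43.6 and 43.3 CPM in IgG DN3. All AntiNRR libraries were above all IgG libraries, 1.69-fold higher (log2 fold change 0.76, SE 0.166, adjusted p = 0.00615). With a spread shared by all 8 groups of the table the adjusted p for Il21r was 0.314, in a range of 0.000382 to 0.314 over all alternatives, while the calls of Il2ra and Il7r held.

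These 3 were the members called in AntiNRR DN3 against IgG DN3 by both edgeR and DESeq2, of 6 that passed the filter on low counts, beside 5.61% of all 12658 genes tested with edgeR (335 higher and 375 lower) and 6.59% with DESeq2. The median log2 fold change was -0.35 over the 6 members and -0.01 over all genes. Il2rg was not called, at 164, 151 and 152 CPM in AntiNRR DN3 and 130.4, 123 and 128 CPM in IgG DN3, a small upward difference without overlap (log2 fold change 0.28, SE 0.11, adjusted p = 0.165). Il15ra, the interleukin 15 alpha chain, read 2.95, 2.79 and 2.06 CPM in AntiNRR DN3 and 9.67, 5.86 and 5.3 CPM in IgG DN3, where the AntiNRR libraries were the lower ones but not called (-1.43, SE 0.563, adjusted p = 0.172). Il4ra, the chain shared by receptors for interleukins 4 and 13, read 16.8, 28.7 and 10.9 CPM in AntiNRR DN3 and 15.7, 10.7 and 5.6 CPM in IgG DN3, and its groups overlapped. Il2rb was below the filter, with 4 counts over the 3 AntiNRR libraries and 0 over the 3 IgG libraries.

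Markers moved beside these receptors. Of the 8 DN3 markers, 4 fell in AntiNRR DN3 (Ptcra, Rag1, Notch3 and Dtx1), with a summed level of 7467 to 8376 CPM in AntiNRR DN3 and 9157 to 9659 CPM in IgG DN3. Of the 7 ETP markers, 1 rose, Kit, and the summed level was 196 to 233 CPM in AntiNRR DN3 and 135 to 155 CPM in IgG DN3. Of the 10 killer and innate lymphoid markers, 1 rose, the granzyme gene Gzma, with sums of 230.0 to 260.2 CPM in AntiNRR DN3 and 121 to 153 CPM in IgG DN3; its defining gene Klrb1c was at 0 in all 6 libraries. Of the 5 gamma-delta and innate-like T markers measured, 1 rose, Sox13, and their sums were 95.1 to 116 CPM in AntiNRR DN3 and 62.7 to 75 CPM in IgG DN3. Regulatory T markers summed to 76.9 to 86.5 CPM in AntiNRR DN3 and 89.1 to 94.6 CPM in IgG DN3, with 0 of 5 called. The ranges did not overlap for any of these 5 lists, nor for the B markers (20.6 to 22.2 CPM in AntiNRR DN3 and 22.3 to 34.3 CPM in IgG DN3). The sums of the double-positive, mature T, myeloid and dendritic markers overlapped. The part of such cells in the receptor changes was not tested.

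In ETP cells the antibody gave no call at this threshold. The number of members called in AntiNRR ETP against IgG ETP was 0 of 7 with edgeR, beside 0% of 12568 genes, with 3 members at an unadjusted p under 0.05, and 1 with DESeq2, beside 0.301% of genes. Il2ra read 423, 270.0 and 1026 CPM in AntiNRR ETP and 2569, 2055 and 1852 CPM in IgG ETP. Each AntiNRR library was below each IgG library, AntiNRR ETP library 3 being the least low (log2 fold change -1.91, SE 0.531, adjusted p = 0.77). Without that library, the one with low Zmiz1, the log2 fold change was -2.64 and the adjusted p 0.000324; over all alternatives the adjusted p lay between 0.000324 and 1.00.

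Il4ra was the member with the lowest p in that comparison. It read 152, 176 and 125 CPM in AntiNRR ETP and 68.6, 44.9 and 67.9 CPM in IgG ETP. The groups did not overlap, with AntiNRR 2.49 times as high (log2 fold change 1.32, SE 0.209). The edgeR adjusted p was 0.0816 and the DESeq2 adjusted p 4.88e-05; the edgeR value was 0.0389 without AntiNRR ETP library 3 and 0.00102 with no filter on low counts, in a range of 4.88e-05 to 0.525 over all alternatives. The others were not called: Il21r had a log2 fold change of 0.65 (SE 0.265), Il2rg of 0.15, Il7r of -0.23, Il2rb of 0.43 and Il15ra of -0.20 (SE 1.04).

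The ETP libraries of the antibody experiment also differed among themselves in marker levels. Summed ETP markers spanned 456 to 1345 CPM in AntiNRR ETP and 367 to 1026 CPM in IgG ETP, and myeloid markers 85 to 497 CPM in AntiNRR ETP and 77.3 to 327 CPM in IgG ETP. The highest sums of each group were in AntiNRR ETP library 2 and IgG ETP library 3. Regulatory T markers summed to 37.3 to 45.6 CPM in AntiNRR ETP and 48.2 to 77.0 CPM in IgG ETP, the only list without overlap. How often groups this small fail to overlap over all genes was not computed, so this is a description only. DN3 markers summed to 1313 to 2263 CPM in AntiNRR ETP and 2099 to 3361 CPM in IgG ETP. The part of these marker levels in the Il4ra and Il2ra values was not tested.

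Il2ra rose in ETP cells after deletion of Zmiz1 with MxCre. The levels were 4571, 4605 and 5023 CPM in DeltaMxCre ETP and 1647, 1942 and 2327 CPM in MxCre ETP. Every deleted library lay above every control, and the level was 2.41-fold that of the controls (log2 fold change 1.27, SE 0.19, adjusted p = 0.0362; DESeq2 adjusted p = 8.52e-11). It was the 1 member called of 7 tested, beside 0.0416% of 12010 genes with edgeR, all called higher, and 0.865% called in either direction with DESeq2. The call ended without any 1 of the 3 DeltaMxCre ETP libraries (adjusted p = 0.259, 0.302 and 0.332) or without MxCre ETP library 2 (0.422), and with a spread shared over the table (0.0694), while the log2 fold change stayed between 1.16 and 1.39. Of all genes, 0 were called in each of the 3 fits without a DeltaMxCre ETP library. Without MxCre ETP library 2 1 gene was called, and with the shared spread 175 were.

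The remaining members did not rise with it. Il4ra read 51, 40.5 and 49.4 CPM in DeltaMxCre ETP and 66.1, 88.5 and 61.2 CPM in MxCre ETP, each deleted library being lower than each control, without a call (log2 fold change -0.62, SE 0.263, adjusted p = 0.847). Il7r read 129, 152 and 187 CPM in DeltaMxCre ETP and 185, 340.2 and 174 CPM in MxCre ETP, with overlap (-0.58, SE 0.272, adjusted p = 0.897). Il2rb, the beta chain shared by the interleukin 2 and 15 receptors, read 20.2, 8.4 and 22.6 CPM in DeltaMxCre ETP and 10.5, 152 and 36.7 CPM in MxCre ETP, a wide spread in which MxCre ETP library 2 was the highest (log2 fold change -1.96, SE 0.881, adjusted p = 0.902). Without that library the log2 fold change was -0.45. Il2rg, Il21r and Il15ra had log2 fold changes of -0.03, -0.29 and -0.01, each smaller than its SE. The median over the 7 members was -0.29, against -0.03 over all genes.

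In these ETP libraries the DN3 markers Ptcra and Dtx1 were also called higher (2 of 8). The summed DN3 markers were 3157 to 3439 CPM in DeltaMxCre ETP and 1645 to 2449 CPM in MxCre ETP, and the summed ETP markers 352 to 448 CPM in DeltaMxCre ETP and 722 to 1001 CPM in MxCre ETP. Neither pair of ranges overlapped. Killer and innate lymphoid markers summed to 89.8 to 121 CPM in DeltaMxCre ETP and 154 to 297 CPM in MxCre ETP, highest in MxCre ETP library 2, the library with the highest Il2rb. Mature T markers summed to 1005 to 1164 CPM in DeltaMxCre ETP and 795 to 891 CPM in MxCre ETP, also without overlap. The part of cell composition in the Il2ra and Il2rb values was not tested.

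In DN3 cells the MxCre deletion gave a smaller difference in the same direction. Il2ra read 4278, 4800 and 5733 CPM in DeltaMxCre DN3 and 2275, 3387 and 4161 CPM in MxCre DN3. The deleted libraries all lay above the controls, the lowest of them only just, and the log2 fold change was 0.59 (SE 0.194). The adjusted p was 0.158 with edgeR and 0.038 with DESeq2, in a range of 0.0142 to 0.76 over all alternatives. Of 6 members tested, 0 were called with edgeR (2 at an unadjusted p under 0.05) and 1 with DESeq2, beside 1.44% of 12675 genes called with edgeR and 3.94% with DESeq2. Il2rg read 141, 136 and 166 CPM in DeltaMxCre DN3 and 128, 114 and 107 CPM in MxCre DN3, the deleted libraries again just above the controls (0.35, SE 0.137, adjusted p = 0.224). Il7r, Il4ra, Il21r and Il15ra had log2 fold changes between -0.07 and 0.17, all smaller than their SEs. Il2rb was below the filter, with 16, 47 and 0 counts in DeltaMxCre DN3 and 1, 0 and 0 in MxCre DN3, so that the groups overlapped at 0.

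Markers also differed between these DN3 groups. The DN3 markers summed to 5780 to 6467 CPM in DeltaMxCre DN3 and 7004 to 8490 CPM in MxCre DN3, with Rag1 called lower and Dtx1 higher (2 of 8). The mature T markers summed to 712 to 973 CPM in DeltaMxCre DN3 and 422 to 619 CPM in MxCre DN3, with Ms4a4b and Cd5 called higher. Neither pair of ranges overlapped. The ETP markers Cd44 and Bcl11a were called lower, while the summed ETP markers overlapped at 103 to 138 CPM in DeltaMxCre DN3 and 105 to 139 CPM in MxCre DN3. The part of cell composition in the Il2ra values was not tested.

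**Figure D2:**
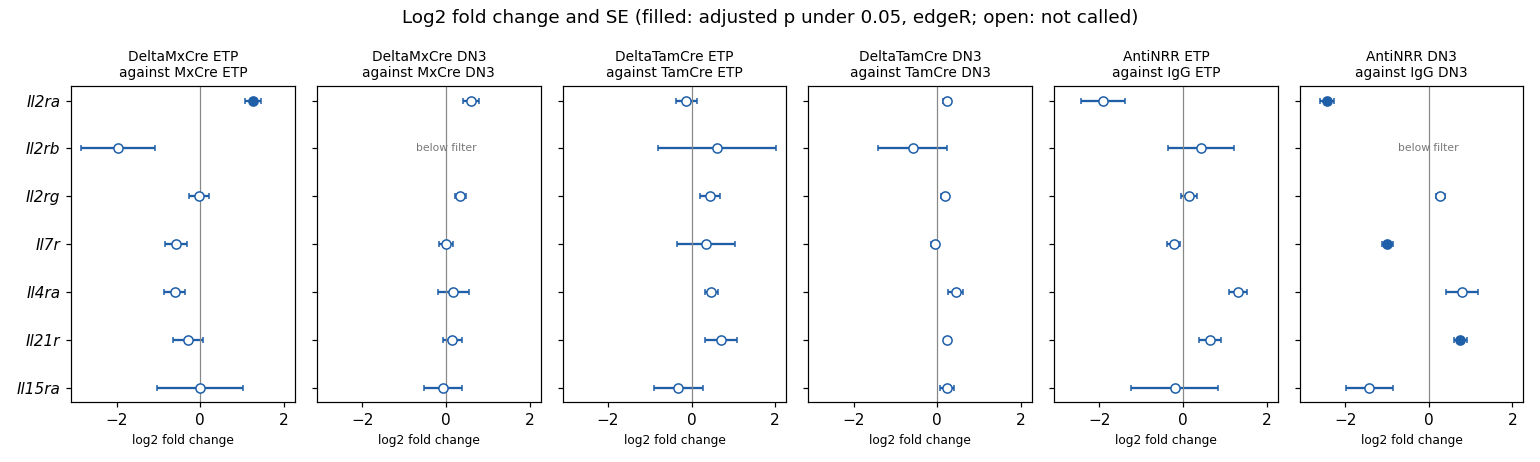
Log2 fold change of each receptor gene in the 6 comparisons, deleted or antibody-treated over control, with bars of 1 SE from edgeR; filled points had an adjusted p under 0.05. Filled points are Il2ra in DeltaMxCre ETP (1.27) and Il2ra (-2.43), Il7r (-0.99) and Il21r (0.76) in AntiNRR DN3, and Il2rb was below the filter in 2 DN3 comparisons.

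Whether the deletion and antibody effects differed was tested by the difference of their log2 fold changes. In DN3 cells the deletion effect minus the antibody effect was 3.01 for Il2ra (SE 0.323, adjusted p = 0.000961) and 0.97 for Il7r (SE 0.212, adjusted p = 0.0138). These were 2 members of 6 tested, beside 1.23% of 13557 genes with edgeR and 2.45% with DESeq2, which called the same number of members. In ETP cells the difference was 3.20 for Il2ra (SE 0.515, adjusted p = 0.0396) and -1.92 for Il4ra (SE 0.333, adjusted p = 0.0177), 2 members of 7 with either tool, beside 0.082% of 13408 genes with edgeR and 0.707% with DESeq2. The ETP call of Il2ra ended in 10 of 12 fits that left out 1 library (adjusted p up to 0.172) and with no filter on low counts (0.151), that of Il4ra in 4 of 12 (up to 0.0791), and the Il7r call in DN3 ended without DeltaMxCre DN3 library 3 (0.0719).

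The effects were not shown to differ between stages. For the deletion effect in DN3 minus that in ETP, 0 of 7 members were called with edgeR and 0 with DESeq2. This stood beside 0.00746% of 13406 genes with edgeR and 0.353% with DESeq2. With edgeR 2 members had an unadjusted p under 0.05, Il2ra and Il2rb. Il2ra had a difference of -0.67 (SE 0.279, adjusted p = 0.866). Il2rb, below the filter in the DN3 comparison, passed it here through the ETP libraries, so its test is not used. For the antibody effect in DN3 minus that in ETP, 0 of 7 were called by either tool (1 at an unadjusted p under 0.05). The shares beside it were 0% of 13603 genes with edgeR and 0.0434% with DESeq2. Il2rb was again among the 7 through the ETP libraries alone. Il7r, called in AntiNRR DN3 and not in AntiNRR ETP (162, 160.4 and 166 CPM in AntiNRR ETP and 199.7, 202 and 170.4 CPM in IgG ETP), had the lowest unadjusted p there, 0.000762, with a difference of -0.75 (SE 0.195, adjusted p = 0.887).

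The short-term tamoxifen deletion gave no call in the family. In DN3 cells 0 of 7 members were called with edgeR and 0 with DESeq2 (3 at an unadjusted p under 0.05), beside 0.0827% of 13298 genes with edgeR and 3.21% with DESeq2. Il2ra read 2523, 3380, 3060 and 2805 CPM in DeltaTamCre DN3 and 2434, 2591, 2437 and 2615 CPM in TamCre DN3. The groups overlapped at the low end of the deleted libraries, with a log2 fold change of 0.22 (SE 0.0975, adjusted p = 0.301). Il21r read 46.5, 51.4, 56.6 and 45.8 CPM in DeltaTamCre DN3 and 42.9, 44.5, 39.5 and 42.9 CPM in TamCre DN3, all deleted libraries being slightly higher (0.24, SE 0.0831, adjusted p = 0.215). Il4ra had a log2 fold change of 0.44 (SE 0.188, adjusted p = 0.298), Il2rg of 0.18 (SE 0.0834), Il15ra of 0.23 and Il7r of -0.06. Killer and innate lymphoid markers summed to 240.0 to 267 CPM in DeltaTamCre DN3 and 307 to 323 CPM in TamCre DN3, without overlap, and their part in the receptor values was not tested. These libraries are the deepest of the study, and the SE for Il7r was 0.0887.

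In tamoxifen ETP cells 0 of 7 members were called with edgeR and 0 with DESeq2 (1 at an unadjusted p under 0.05), beside 0% of 12924 genes with edgeR and 0.0472% with DESeq2. For Il2rb and Il7r 1 library stood apart. Il2rb read 432, 21, 21.2 and 11.6 CPM in DeltaTamCre ETP and 68.1, 202, 19.3 and 29.1 CPM in TamCre ETP. DeltaTamCre ETP library 1 was higher than every control, and the other deleted libraries lay at or near the lowest controls. Il7r read 536, 82.1, 135 and 83.9 CPM in DeltaTamCre ETP and 185, 244, 113 and 116 CPM in TamCre ETP, with the same library at the top.

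Il2ra went the other way, at 866, 2444, 2263 and 1866 CPM in DeltaTamCre ETP and 1995, 2083, 2121 and 1928 CPM in TamCre ETP, DeltaTamCre ETP library 1 being the lowest of all 8. With that library the log2 fold changes were 0.61 for Il2rb (SE 1.42), 0.35 for Il7r (SE 0.703) and -0.13 for Il2ra (SE 0.256). Without it they were -2.16, -0.72 and 0.10, none of them called. Il4ra read 121, 81.6, 115 and 125 CPM in DeltaTamCre ETP and 89.4, 67.5, 82.8 and 79.3 CPM in TamCre ETP, with overlap and the lowest unadjusted p of the 7 (0.00996; log2 fold change 0.47, SE 0.155, adjusted p = 0.907).

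Marker levels of DeltaTamCre ETP library 1 stood apart as well. Its 5 regulatory T markers summed to 379.5 CPM, against 24.3 to 29.7 CPM in the other DeltaTamCre ETP libraries and 19.2 to 127 CPM in TamCre ETP. Its 10 killer and innate lymphoid markers summed to 584 CPM, against 98.0 to 135 CPM in the other DeltaTamCre ETP libraries and 116 to 276 CPM in TamCre ETP. Foxp3, the defining factor of regulatory T cells, read 141, 4.03, 4.04 and 1.51 CPM in DeltaTamCre ETP and 21.9, 37.7, 4.15 and 13.6 CPM in TamCre ETP. Its Zmiz1 level lay within the range of the other deleted libraries. The part of other cell types in its receptor values was not tested.

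DeltaTamCre ETP library 4 differed in other markers. Its DN3 markers summed to 4423 CPM, against 1122 to 2710 CPM in the other 7 tamoxifen ETP libraries, and its double-positive markers to 2162 CPM, against 591 to 1266 CPM. Il21r read 88, 24.6, 40.3 and 78.5 CPM in DeltaTamCre ETP and 45.1, 30.1, 39.9 and 27.4 CPM in TamCre ETP. Libraries 1 and 4 of the deleted group were above every control and the other 2 were not (log2 fold change 0.70, SE 0.375, adjusted p = 0.907). The log2 fold change of Il21r was 0.42 without library 1 and 0.51 without library 4, neither called. Without library 4 Il2ra stood at -0.13, Il2rb at 0.98, Il7r at 0.61 and Il4ra at 0.40, none of them called. The part of the marker levels of library 4 in these values was not tested.

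**Figure D3:**
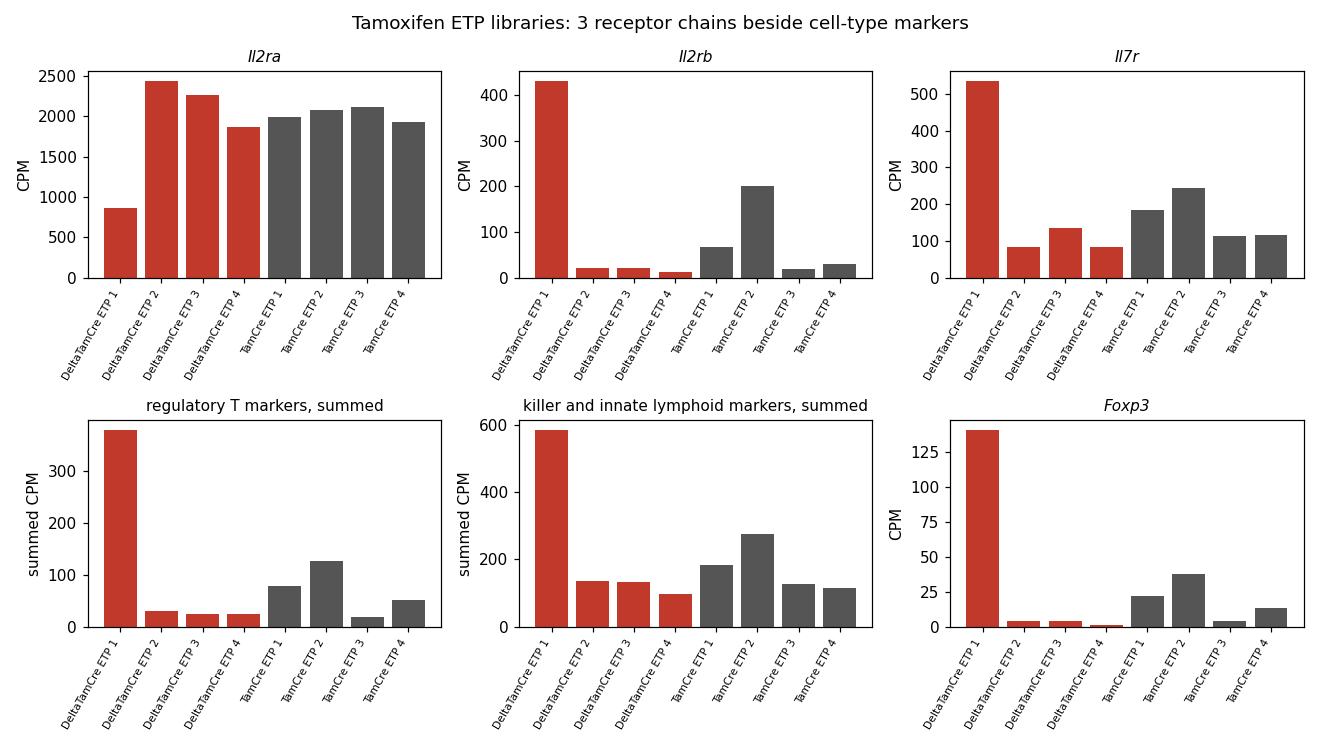
CPM of Il2ra, Il2rb, Il7r and Foxp3, and summed CPM of the regulatory T and the killer and innate lymphoid markers, in each tamoxifen ETP library, with 4 DeltaTamCre libraries in red and 4 TamCre libraries in grey. DeltaTamCre ETP 1 is the highest library in all panels except Il2ra, where it is the lowest.

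**Figure D4:**
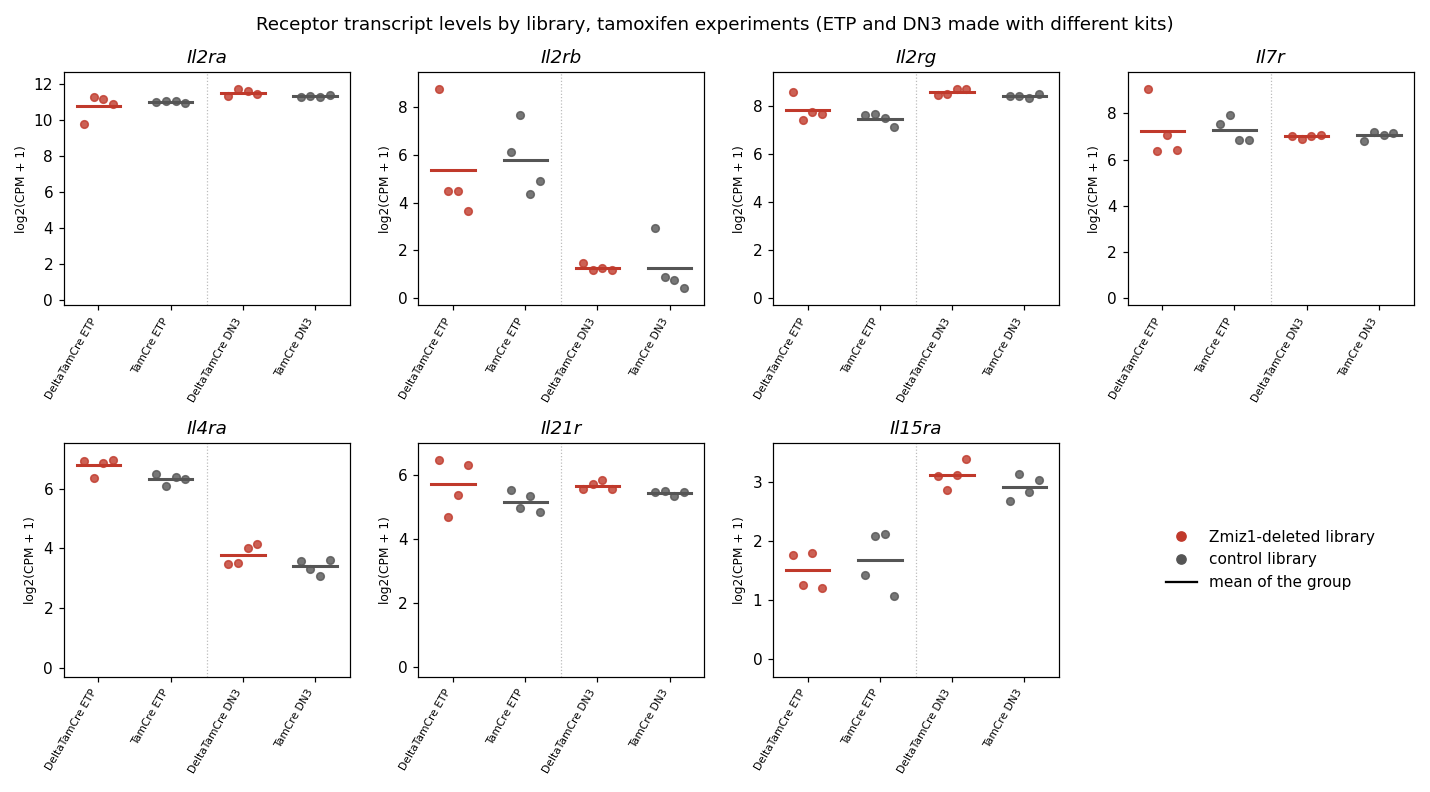
Level of each receptor gene as log2(CPM + 1) in the 16 libraries of the tamoxifen experiments, with points for libraries and bars for the mean of the log2 values of 4 libraries. The DN3 groups are tight for Il2ra, Il2rg, Il7r and Il21r, the ETP groups are wide for Il2rb and Il7r, and the 2 stages came from different kits and tables.

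Between the stages, Il4ra was lower in DN3 than in ETP in both control groups, where both stages came from 1 kit. Il4ra read 8.03, 6.36 and 4.72 CPM in MxCre DN3 and 66.1, 88.5 and 61.2 CPM in MxCre ETP. It was lower in every DN3 library (log2 fold change -3.53, SE 0.317, adjusted p = 0.000698). In IgG mice the log2 fold change was -2.50 (SE 0.322, adjusted p = 0.000128). The levels there were 15.7, 10.7 and 5.6 CPM in IgG DN3 and 68.6, 44.9 and 67.9 CPM in IgG ETP.

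Il2rb was nearly silent in MxCre DN3 and IgG DN3. The 3 MxCre DN3 libraries held 1 count in all, against 3320 in the 3 MxCre ETP libraries, a ratio of ETP over DN3 of 3255 after scaling for depth (95% Poisson interval 584 to 128601). The 3 IgG DN3 libraries held 0 counts, against 443 in IgG ETP, so that IgG DN3 was at least 214-fold lower at a floor of 3 counts over the group. These intervals and floors cover counting error only. Both values rest in part on 1 ETP library: MxCre ETP library 2 held 2378 of the 3320 counts, and without it the ratio was 1303; IgG ETP library 2 held 233 of the 443 counts, and without it IgG DN3 was at least 138-fold lower. These left-out values were chosen after seeing the data. Other DN3 groups held more Il2rb, with 63 counts over the DeltaMxCre DN3 libraries. In the deeper tamoxifen DN3 table, TamCre DN3 held 719 counts (0.326 to 6.61 CPM) and DeltaTamCre DN3 335 (1.24 to 1.78 CPM). Il2rb passed the filter on low counts through the ETP libraries alone, so its fitted test is not used here.

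Of the 5 members other than Il2ra and Il2rb, Il4ra alone was called with edgeR, in MxCre mice beside 2.99% of 12399 genes and in IgG mice beside 14.7% of 12720 genes. DESeq2 called Il2rg lower as well in each, beside 8.57% of genes in MxCre mice and 15.9% in IgG mice. Il2rg read 128, 114 and 107 CPM in MxCre DN3 and 148, 267 and 182 CPM in MxCre ETP, lower in each DN3 library but called with DESeq2 alone (log2 fold change -0.80, SE 0.24, adjusted p = 0.119 with edgeR and 0.0323 with DESeq2). In IgG mice its values were -0.38 (SE 0.127), 0.0556 and 0.0369. Il7r and Il21r were not called in either, with log2 fold changes of -0.64 and -0.10 in MxCre mice and -0.26 and -0.09 in IgG mice. Il15ra, at a few CPM throughout, was not called either, at -0.23 (SE 0.827) and 1.04 (SE 0.583).

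Il2ra is given between stages as a description only, since CD25 was in the gate. It read 2275, 3387 and 4161 CPM in MxCre DN3 and 1647, 1942 and 2327 CPM in MxCre ETP, with overlap, and 3076, 3668 and 3496 CPM in IgG DN3 and 2569, 2055 and 1852 CPM in IgG ETP, without. Il2ra RNA was thus abundant at both stages, though the labels give both as CD25-. Some markers of other cells also differed between the stages. Tyrobp, a signalling adaptor of innate cells, and Zbtb16, the factor of innate-like T cells, were called lower in DN3 than in ETP in both control groups. They come from lists of 10 and 5 measured genes, and the calls of the other genes of those lists are not given here. The summed killer and innate lymphoid markers overlapped in both control pairs. They were 101 to 202 CPM in MxCre DN3 and 154 to 297 CPM in MxCre ETP. In IgG mice they were 121 to 153 CPM in DN3 and 130 to 237 CPM in ETP. Tyrobp was at 0 in every MxCre DN3 library. Myeloid markers summed to 16.9 to 19.4 CPM in MxCre DN3 and 73.5 to 203 CPM in MxCre ETP, and gamma-delta and innate-like T markers to 46.8 to 80.2 CPM in MxCre DN3 and 92.8 to 155 CPM in MxCre ETP. In IgG mice the myeloid sums were 13.5 to 27.7 CPM in DN3 and 77.3 to 327 CPM in ETP. The gamma-delta and innate-like T sums were 62.7 to 75.0 CPM in IgG DN3 and 86.3 to 158 CPM in IgG ETP. The part of such cells in the Il2rb and Il4ra levels was not tested.

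**Figure D5:**
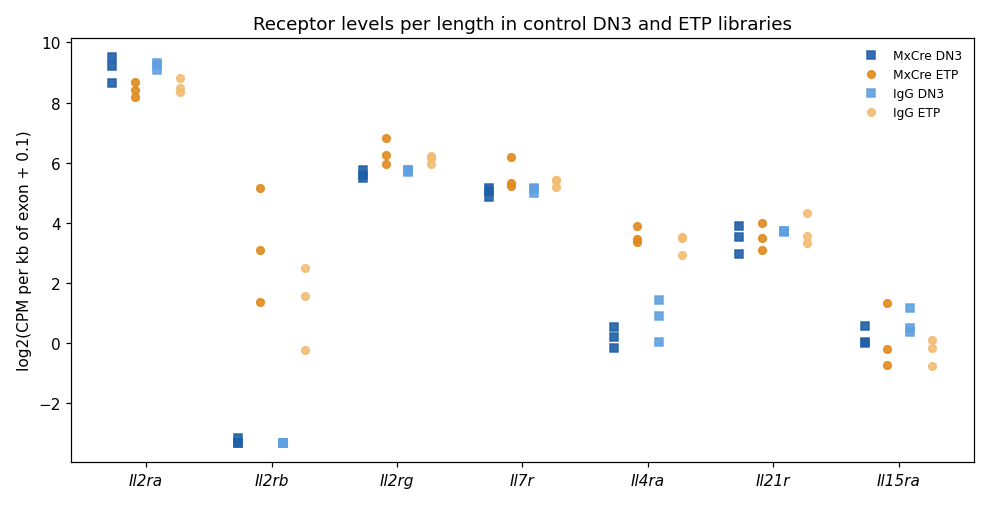
Level of each receptor gene per length, as log2(CPM per kb of exon + 0.1), in control DN3 (squares) and ETP (circles) libraries of the MxCre and IgG groups, 3 libraries each. Il2ra is the highest gene in all 4 groups, and Il2rb and Il4ra lie lower in DN3 than in ETP.

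Levels per kilobase of exon put the chains in an order. In MxCre DN3 the means were 573 ± 166 CPM per kb for Il2ra, 48.8 ± 4.56 for Il2rg, 32.8 ± 3.23 for Il7r, 11.2 ± 3.57 for Il21r, 1.07 ± 0.269 for Il15ra, 1.06 ± 0.275 for Il4ra and 0.0045 for Il2rb (SD, n = 3). Il15ra and Il4ra overlapped, and the other neighbours did not. In MxCre ETP the order was Il2ra, Il2rg, Il7r, Il2rb, Il4ra, Il21r and Il15ra. There Il2rg and Il7r overlapped, as did Il2rb with Il4ra and Il4ra with Il21r. In AntiNRR DN3 Il2ra held 112 ± 28.4 CPM per kb, Il2rg 65.3 ± 2.92, Il21r 22.4 ± 3.49 and Il7r 17.3 ± 1.89 (SD, n = 3), so Il21r stood above Il7r there.

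Downstream and partner genes were read from a list of 29 genes (8 ligands, 4 partner receptors, 4 kinases, 5 Stat factors and 8 feedback and target genes). In DeltaMxCre DN3 against MxCre DN3, 3 of 19 tested rose and 0 fell, beside 0.986% of all genes called higher and 0.458% lower. Cish, a feedback inhibitor induced by Stat5, read 54.9, 31.3 and 23.8 CPM in DeltaMxCre DN3 and 12.8, 8.05 and 9.28 CPM in MxCre DN3, all deleted libraries being higher (log2 fold change 1.87, SE 0.309, adjusted p = 0.0101). The kinase gene Pim1 had a log2 fold change of 0.81 (SE 0.187, adjusted p = 0.0413) and the survival gene Bcl2 of 0.60 (SE 0.14, adjusted p = 0.0424). In DeltaMxCre ETP 0 of 20 were called with edgeR, beside 0.0416% of all genes, and 1 with DESeq2, beside 0.865%. That gene was Cish, which read 69, 51.3 and 37.2 CPM in DeltaMxCre ETP and 14, 17.7 and 24.1 CPM in MxCre ETP (log2 fold change 1.50, SE 0.36, adjusted p = 0.386 with edgeR and 0.0303 with DESeq2).

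In AntiNRR DN3 against IgG DN3 3 of 19 were called higher and 0 lower, beside 2.65% of all genes called higher and 2.96% lower. Jak1, the kinase bound by the ligand-specific chains, had a log2 fold change of 0.49 (SE 0.0909, adjusted p = 0.00151), Stat3, which relays interleukin 21 signals, of 0.44 (SE 0.103, adjusted p = 0.0107), and the repressor gene Bcl6 of 1.43 (SE 0.287, adjusted p = 0.00321). Jak3, the kinase bound by the common gamma chain, was not called in any of the 6 comparisons, nor were Stat5a and Stat5b. With edgeR 0 of the list were called in AntiNRR ETP (20 tested), DeltaTamCre ETP (21) and DeltaTamCre DN3 (20), and with DESeq2 likewise 0.

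Between stages, 2 of 19 were lower and 0 higher in MxCre DN3 against MxCre ETP. Beside these, 2.1% of all genes were called lower and 0.895% higher. In IgG DN3 against IgG ETP 3 were lower and 2 higher, beside 7.6% of all genes called lower and 7.12% higher. Pim1 was lower in DN3 in both control pairs (-1.98, adjusted p = 0.00278 for MxCre, and -1.69, adjusted p = 2.06e-05 for IgG). Stat3 was also lower in MxCre DN3 (-0.90, adjusted p = 0.0279). In IgG DN3, Crlf2, the thymic stromal lymphopoietin receptor that pairs with Il7r, was lower (-1.58, adjusted p = 0.0123), as was Socs2 (-2.38, adjusted p = 0.00123), while Socs3 (1.30, adjusted p = 0.000227) was higher. Ligand genes were scarcely read: Il2 was at 0 in all 24 libraries of the pI-pC and antibody table, and Il7 never passed 0.211 CPM there.

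The genes whose log2(CPM + 1) was most like each member over those 24 libraries, among 9325 genes averaging 5 CPM or more, are given as a description, since the libraries share stage, treatment and depth. For Il2ra they were the Notch target Dtx1 (Pearson r = 0.92, with 0.96 over the 12 ETP and 0.98 over the 12 DN3 libraries), Plekha7 (0.87) and Gpr132 (0.86). For Il4ra they were S100a10 (0.95), Cpa3 (0.94) and Pygl (0.94), and for Il2rb Zbtb16 (0.92), F2r (0.91) and Sorl1 (0.91). Within a stage many values were lower. In the same order, those of Il2rb were 0.63, 0.67 and 0.86 over ETP and -0.06, 0.24 and -0.13 over DN3. Those of Il4ra were 0.63, 0.78 and 0.78 over ETP and 0.75, 0.71 and 0.35 over DN3. For Il2rg the most alike genes were the antigen-processing genes Tapbp and Tap1 and Arhgap4 (each 0.86). For Il7r they were Mcat (0.84), Psmd7 (0.75) and Abcb1b (0.74), with 0.57, -0.13 and 0.38 over ETP and 0.87, 0.87 and 0.76 over DN3. For Il21r they were Pnrc1 (0.84), Rhoh (0.83) and Tbxa2r (0.83). For Il15ra the highest value was 0.70 (Hnrnpa2b1).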

How the data were processed

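Bulk RNA of sorted ETP and DN3 thymocytes was measured in 40 libraries of 12 groups. Estimated counts for each gene symbol were deposited by the authors in 3 tables, with a column for each library, and the unit was read from the values, of which 0.507% to 1.23% per library were not whole within 0.01. Per the submitters' processing notes the tools included Cuffdiff 2.1.1, Cufflinks, TopHat2 2.0.9, Bowtie2 2.1.0.0 and FastQC 0.10.0, with mm10, without a stated role; the annotation and strand setting are not given in the sources used here. Per the labels' protocols, the pI-pC and antibody libraries were made with RiboGone and SMARTer Ultra low input kits, the tamoxifen DN3 libraries with TruSeq and the tamoxifen ETP libraries with a SMARTer Stranded Pico kit.

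Counts were rounded, filtered (filterByExpr, minimum count 10, minimum total 15) and fitted 2 groups at a time with edgeR 4.0.16 (TMM, robust quasi-likelihood, R 4.3.3), with Benjamini-Hochberg adjustment over all genes tested and calls at 0.05; differences of effects used 4-group models. The SE is the log2 fold change divided by the root of the F statistic. Levels in CPM use TMM over all libraries of a table, so a ratio of means can differ slightly from the fitted fold. The share of all genes whose groups did not overlap was not computed, so overlap of members or marker sums is a description. Exon lengths and coordinates came from GENCODE M21 (GRCm38). Alternatives were the DESeq2 1.42.0 Wald test, DESeq2 size factors in edgeR, other filters, a spread shared by all groups, a replicate block and leaving out each library. The pipeline was tested on simulated data. No 2 libraries held identical values.

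The 7 members, the pathway list and the marker lists were chosen with earlier results of these data known. The named genes are all members, the pathway genes called, and the 3 genes most like each member; 1 pathway gene is not reported here. Models overlapping Il2rg and Il4ra in the annotation had no row in the tables, and without a stated strand setting their reads cannot be told apart. The number of library columns left unmapped was 0.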

Additional observations from a re-analysis of the deposited data

Results flagged for a closer look

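Of 28 sets of 4 libraries tested with Dixon's rule for 1 value far from the rest, in which chance flags about 1 in 20, 3 stood out, all among the tamoxifen libraries. For Il2rb in DeltaTamCre ETP the gap of the highest library to the next was 0.977 of the range, and for Il7r in the same group it was 0.884, with DeltaTamCre ETP library 1 at the top both times. For Il2rb in TamCre DN3 the gap was 0.914, with TamCre DN3 library 1 at 6.61 CPM and the others between 0.326 and 0.866 CPM. That library also read 6.54 CPM of Foxp3, against 0.202 to 0.218 CPM in the other TamCre DN3 libraries. Its summed regulatory T markers were not raised, at 92.1 CPM against 96.0 to 107.7 CPM in the others. Its killer and innate lymphoid markers summed to 319.7 CPM, against 306.6 to 323.2 CPM. The part of other cell types in its Il2rb level was not tested.

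Deletion and antibody effects on a member differed by a direct test in 4 cases. For Il2ra the deletion effect minus the antibody effect on the log2 scale was 3.01 in DN3 and 3.20 in ETP. For Il7r it was 0.97 in DN3, and for Il4ra -1.92 in ETP. These calls stood beside 1.23% of 13557 genes in DN3 and 0.082% of 13408 genes in ETP with edgeR. When 1 library was left out, the ETP call of Il2ra ended in 10 of 12 fits and that of Il4ra in 4 of 12. The DN3 call of Il7r ended in 1 of 12 fits, and that of Il2ra in 0. Deleted and antibody-treated mice were taken at different times, 8 weeks and 24 hours after treatment, and this cannot be told apart from the treatments.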

How the results depend on the processing

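The counts of members called depended on the processing in these cases. In DeltaMxCre ETP 1 was called (5 of all genes), and 0 with a spread shared by all groups of the table (175 of all genes). In DeltaMxCre DN3 0 were called (183 of all genes), and 1 with DESeq2 (520 of all genes) and 1 with the replicate block (227). In AntiNRR ETP 0 were called (0 of all genes), and 1 with DESeq2 (24 of all genes) and 1 with no filter on low counts (8). For the deletion effect minus the antibody effect in ETP 2 were called (11 of all genes), and 1 with no filter (14 of all genes). In AntiNRR DN3 3 were called, but Il21r was not called with the shared spread (edgeR adjusted p = 0.314). In both stage comparisons 2 were called, and 3 with DESeq2, which added Il2rg. In MxCre mice the shared spread also added Il2rg (edgeR adjusted p = 0.00494). Leaving out 1 library at a time gave 0 to 1 calls in DeltaMxCre ETP and in DeltaMxCre DN3. It gave 0 to 2 in AntiNRR ETP and for the difference of effects in ETP, and 1 to 2 for that in DN3. In both stage comparisons it gave 2 to 3, a count that includes Il2rb, whose fitted test is not used here. It gave 3 in every fit of AntiNRR DN3.

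Directions turned only for values that were not called. With the replicate block Il2rg was 0.0026 and Il15ra 0.28 in DeltaMxCre ETP, Il2rb -0.49 and Il7r -0.066 in DeltaTamCre ETP, Il2rb 0.38 in DeltaTamCre DN3, and Il15ra 0.067 between MxCre DN3 and ETP (log2 fold changes). With libraries left out, the log2 fold changes that changed sign ran from -0.20 to 0.25 for Il2rg and -0.38 to 0.91 for Il15ra in DeltaMxCre ETP. In DeltaMxCre DN3 they ran from -0.24 to 0.14 for Il7r, -0.00029 to 0.37 for Il4ra, -0.061 to 0.40 for Il21r and -0.18 to 0.15 for Il15ra. In DeltaTamCre ETP they ran from -0.29 to 0.10 for Il2ra, -2.16 to 1.65 for Il2rb and -0.72 to 0.61 for Il7r, and in DeltaTamCre DN3 from -0.95 to 1.14 for Il2rb. In AntiNRR ETP they ran from -0.67 to 1.18 for Il2rb, -0.070 to 0.27 for Il2rg and -1.27 to 0.17 for Il15ra. Between stages they ran from -0.34 to 0.18 for Il21r and -0.58 to 0.71 for Il15ra in MxCre mice and -0.28 to 0.28 for Il21r in IgG mice. For the antibody effect in DN3 minus that in ETP they ran from -0.83 to 0.21 for Il2ra and -0.24 to 0.31 for Il21r. The cause of these changes was not tested.

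The correlation of deviations between same-numbered libraries lay between -0.355 and 0.184 over the 8 comparisons, and in none of them was every pair over 0.1. With so few libraries a group, these values cannot show that pairing is absent. Whether same-numbered ETP and DN3 libraries came from the same mice is not given in the sources used here. Apart from the replicate block, the stage tests and the differences between stages treated the libraries as independent. Depth limits Il2rb in DN3, Il15ra and the ligand genes most, which held few counts.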
